A study of Mus musculus with 8 samples.

Results

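The TRIM (tripartite motif) proteins are a family of ubiquitin ligases, and their transcripts were followed across haematopoietic stem and progenitor cells of normal and leukaemic mice. All genes whose symbol is Trim, a number and at most 1 trailing letter were taken, which gave 58 of the 20207 genes in each expression table. Of these, 35 reached at least 0.5 RPKM (reads per kilobase of transcript and per M mapped reads) in at least 1 of 8 libraries and are described here. In the CML stem cells Trim12 transcripts were nearly lost and Trim21 transcripts were 11.5-fold higher than in normal stem cells. Trim25 was lower in a call that was lost without any 1 of the 6 libraries. No other member passed this main test, which pooled long-term and short-term stem cells. Within long-term stem cells alone Trim16 was also higher, in a call lost when any 1 of their libraries was left out.

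A typical TRIM protein carries a RING domain that passes ubiquitin to a target, B-box domains, a coiled coil through which the proteins pair, and a variable end that chooses the target. Many members with a PRY-SPRY end take part in antiviral defence and in signalling from cytosolic RNA and DNA sensors, and the genes of several of them respond to interferon. Other members act in the nucleus as transcriptional co-repressors, bind microtubules or act in erythroid maturation.

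Chronic myelogenous leukaemia (CML) was modelled with a tetracycline-regulated BCR-ABL1 oncogene. The CML mice carried a Tal1-tTA driver and a TRE-BCR-ABL1 transgene, so that doxycycline withdrawal switched on BCR-ABL1 in cells with the tTA activator. Healthy littermates with Tal1-tTA alone were the controls described by the study, and the labels do not say whether the normal libraries came from mice with this driver. Bone marrow was sorted into long-term stem cells (LT, CD150+CD48-CD135- KLS+), short-term stem cells (ST, CD150-CD48-CD135- KLS+) and committed progenitors (KLS-, which are cKit+ and lack lineage markers and Sca-1).

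The normal libraries were LT-HSC 1 (age 2 months), LT-HSC 2 (6 months), ST-HSC (2 months) and normal KLS- (2 months). The CML libraries were LT-CML 1, LT-CML 2, ST-CML and CML-KLS-, with no age in the labels. Every label gives the strain as C57BL/6, whereas the study's methods describe the transgenic line on the FVB/N background. The age of LT-HSC 2 is above those given in the methods for the littermate controls. The methods also describe a younger and an older group of C57BL/6 mice, whose KLS+ cells were used for metabolomics. Whether the normal libraries came from such mice is not given in the labels. LT cells had 2 libraries in each condition and the ST and KLS- cells 1. Nothing says that the replicates came from separate mice, so the p-values measure the spread between these libraries. In the sentences below, values for stem cells are listed in the order LT 1, LT 2 and ST.

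The expression tables hold no counts, and the depth was estimated at 17.6 to 23.6 M reads per library (median 19.1) from the steps between low values. At these depths 3 reads on a transcript of 1 kb give 0.127 to 0.170 RPKM. Transcripts from the Y chromosome were abundant in LT-HSC 2 and LT-CML 2 and at or near 0 in the other libraries. The summed RPKM of 6 neutrophil markers was also highest among normal stem libraries in LT-HSC 2 (3925, against 510 in LT-HSC 1 and 108 in ST-HSC). Among CML stem libraries this sum was highest in LT-CML 2 (2294, against 231 in LT-CML 1 and 1232 in ST-CML). In LT-CML 2 Mpo alone was 1291 RPKM, whereas in LT-HSC 2 Mpo was 69.9 RPKM and Ngp 688 RPKM. H2-Ea, a class II gene that C57BL/6 mice do not transcribe because of a deletion, was 0.064, 0.053 and 0 RPKM in normal stem libraries and 1.23, 0.772 and 1.58 RPKM in CML stem libraries. Nnt, part of which is deleted in the C57BL/6J substrain, was 24.7, 8.76 and 25.9 RPKM in normal and 25.6, 21.1 and 25.9 RPKM in CML stem libraries. The disease and any difference in genetic background between the groups cannot be told apart.

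Most expressed members were found in every population. Of the 35, 26 were at or above 0.5 RPKM in all 8 libraries, 8 exceeded 10 RPKM somewhere, and the median of their mean levels was 4.04 RPKM. By mean RPKM over the 8 libraries, the 8 most abundant were Trim30, Trim28, Trim13, Trim12, Trim34, Trim44, Trim35 and Trim32. The remaining 23 members never reached 0.5 RPKM, and Trim29 and Trim61 were listed at 0 in all libraries. The peak of the lowest gene inside the limit, Trim3, was 0.929 RPKM, and that of the highest gene outside it, Trim7, was 0.432 RPKM.

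**Figure D1:**
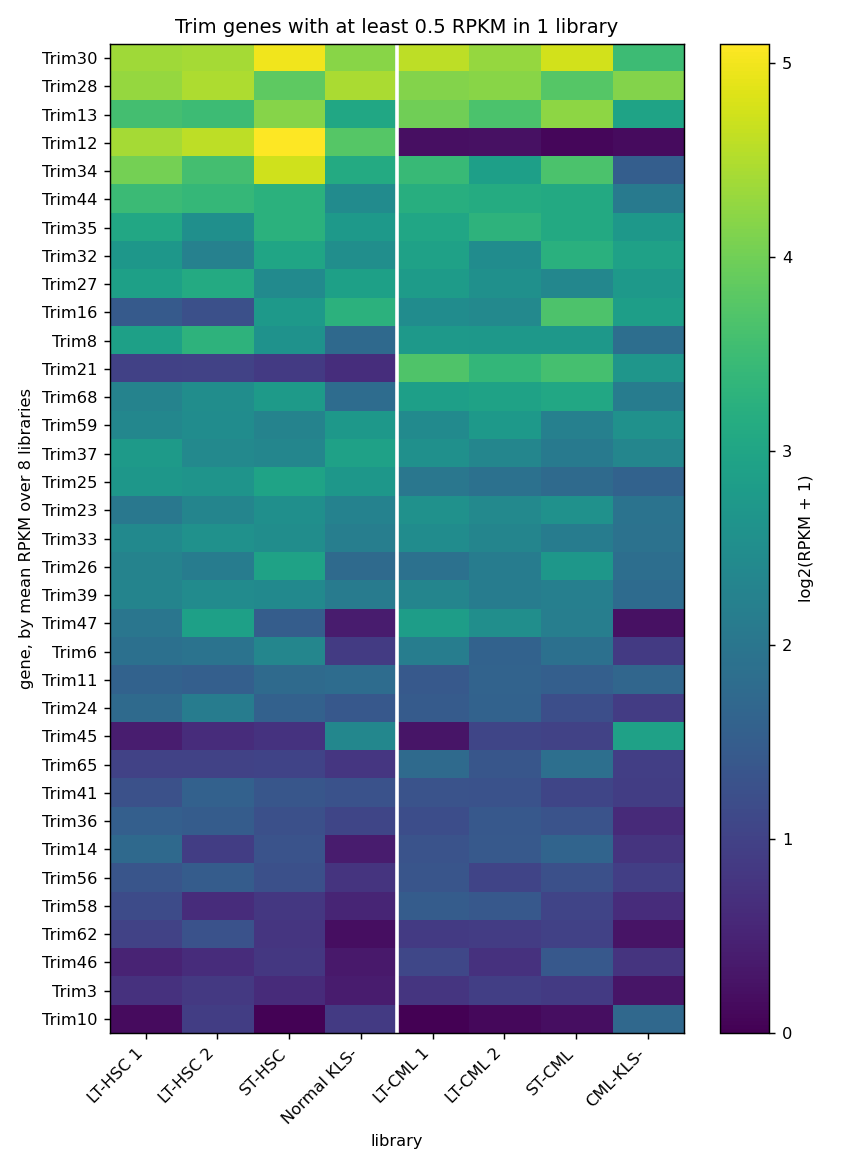
Heat map of log2(RPKM + 1) for the 35 Trim genes with at least 0.5 RPKM in 1 library (rows, ordered by mean RPKM) in 8 libraries (columns, normal to the left of the white line and CML to the right). Trim12 is dark in all 4 CML libraries and bright in the normal ones, Trim21 shows the opposite, and Trim45 is brightest in the 2 KLS- libraries.

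Trim30, also called Trim30a, is an interferon-responsive restraint on NF-kB signalling and had the highest mean level. It was 19.8, 20.3 and 30.9 RPKM in normal stem cells, 23.0, 18.6 and 25.9 RPKM in CML stem cells, 17.4 RPKM in normal KLS- and 10.2 RPKM in CML-KLS- cells. The normal and CML stem ranges overlapped, and ST cells had the highest value of each condition.

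Trim28 (KAP1) is the co-repressor recruited by KRAB zinc finger proteins. Its levels were 18.5, 21.3 and 13.3 RPKM in normal stem cells, 16.8, 17.2 and 12.5 RPKM in CML stem cells, 21.0 RPKM in normal KLS- and 16.7 RPKM in CML-KLS- cells. ST cells were lowest in both conditions. Trim13, a ligase of the endoplasmic reticulum membrane, was 10.9, 10.2 and 17.1 RPKM in normal stem cells, 14.9, 11.7 and 17.7 RPKM in CML stem cells, and 7.19 and 6.82 RPKM in normal and CML KLS- cells. Here both KLS- libraries lay below all 6 stem libraries.

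Trim44, an unusual member without a RING domain, was 10.1, 9.52 and 8.53 RPKM in normal stem cells, 8.19, 7.77 and 7.55 RPKM in CML stem cells, and 4.51 and 3.22 RPKM in normal and CML KLS- cells. Each CML stem value was below each normal stem value, by a small margin (log2 fold change -0.23, SE 0.14, adjusted p = 0.567 from limma). Trim35, a PRY-SPRY member, was 7.31, 4.80 and 8.52 RPKM in normal stem cells, 7.09, 8.80 and 7.57 RPKM in CML stem cells, and 5.66 and 5.55 RPKM in KLS- cells. Trim32, a ligase with NHL repeats known from a muscular dystrophy, was 5.48, 3.71 and 7.02 RPKM in normal stem cells, 6.57, 4.58 and 8.39 RPKM in CML stem cells, and 4.70 and 6.58 RPKM in KLS- cells. For both genes the normal and CML ranges overlapped.

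The first comparison asked which members differ between CML stem cells (LT-CML and ST-CML) and normal HSCs (LT-HSC and ST-HSC), 3 libraries against 3. Fold changes here and below are differences in log2(RPKM + 1), which understate the change of low genes, and were tested with limma. The 12561 genes whose RPKM summed to more than 1 over the libraries entered the test, and p-values were adjusted over all of them by the Benjamini-Hochberg method. Of the 35 members, 3 passed an adjusted p of 0.05: Trim21 was higher, and Trim12 and Trim25 were lower. Over all genes tested, 2.34% passed, 1.18% higher and 1.16% lower. The median log2 fold change was -0.10 over the members and -0.04 over all genes, with 15 members above 0 and 20 below it. At an unadjusted p under 0.05, 7 of the 35 members passed, against 12.5% of all genes. In 6 members (17.1%) the 3 CML and 3 normal stem libraries did not overlap, against 18.3% of all genes. Trim21, Trim65 and Trim68 were on the higher side (6.92% of all genes) and Trim12, Trim25 and Trim44 on the lower side (11.4% of all genes).

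Trim12, also called Trim12a, is a rodent relative of the retroviral restriction factor Trim5. Its level was 20.3, 23.3 and 33.3 RPKM in normal stem cells and 12.5 RPKM in normal KLS- cells. In CML stem cells it was 0.158, 0.180 and 0.0704 RPKM, and in CML-KLS- cells 0.110 RPKM. All 4 normal libraries lay far above all 4 CML libraries, and no CML library was at 0.

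The log2 fold change of Trim12 in CML stem cells was -4.52 (SE 0.20, adjusted p = 5.23e-05 from limma), and the gene passed in each of the 15 settings tried. The pseudocount of 1 dominates the CML values on that scale, and with 0.1 the log2 fold change was -6.77. With the length of a 1531-base coding transcript, the CML values corresponded to 5, 5, 2 and 3 reads in LT-CML 1, LT-CML 2, ST-CML and CML-KLS-. That length was picked among coding transcripts of 1385 to 1531 bases because its reads came closest to whole numbers (within 0.043). The closeness is therefore no test of the length. With the full exon length of 5781 bases the values would be 18.7, 18.7, 7.49 and 11.2 reads. At 1531 bases the 3 CML stem libraries together held 12 reads and the 3 normal stem libraries about 2399. Relative to depth, the normal level was 184-fold higher. The 95% exact interval of 105 to 356 is for counting error at this length only, since amplified reads are not independent molecules. In bulk RNA, fewer cells with a transcript and less transcript per cell cannot be told apart.

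Trim12 maps to chromosome 7, positions 111448408 to 111463980 on the minus strand (mm9, gene models of GENCODE M1). It lies inside the span of Trim34 (Trim34a, plus strand, 111392971 to 111489207), in a cluster with Trim6 (plus strand, 111367307 to 111383666) and Trim30 (minus strand, 111557539 to 111613707). Of the 100-base windows in Trim12 coding transcripts, 6.81% also occur in transcripts of another gene, mostly Trim5. How the authors' counting placed such reads, and how reads from another strain would match this C57BL/6J-based genome, was not tested. The H2-Ea values given above differed between the same groups of libraries (log2 fold change 1.06, adjusted p = 0.0121 from limma).

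Trim21 is a cytosolic receptor for antibody-coated virus as well as a ubiquitin ligase. Its level was 0.994, 1.01 and 0.824 RPKM in normal stem cells and 0.587 RPKM in normal KLS- cells. In CML cells it was 11.9, 9.46 and 11.1 RPKM in the stem libraries and 5.38 RPKM in KLS-. The lowest CML library was above the highest normal library, and KLS- cells had the lowest value of each condition.

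The mean of Trim21 was 0.943 ± 0.103 RPKM in normal and 10.8 ± 1.25 RPKM in CML stem cells (SD, n = 3 libraries each), a ratio of 11.5. On the log2 scale the change was 2.60 (SE 0.15, adjusted p = 0.000228 from limma), and it passed in each of the 15 settings. The gene maps to chromosome 7, positions 109706436 to 109713983, minus strand. None of its 100-base transcript windows occurs in another gene.

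Trim25 is the ligase known for attaching ubiquitin chains to the RNA sensor RIG-I (Ddx58). Its level was 5.51, 5.23 and 6.80 RPKM in normal stem cells and 5.49 RPKM in normal KLS- cells, and 3.05, 2.74 and 2.37 RPKM in CML stem cells and 2.04 RPKM in CML-KLS- cells. The normal and CML stem libraries did not overlap, and the single CML-KLS- value was below the single normal KLS- value.

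On the log2 scale Trim25 fell by 0.88 in CML stem cells (SE 0.16, adjusted p = 0.0351 from limma), from 5.85 ± 0.838 to 2.72 ± 0.338 RPKM (SD, n = 3 libraries each). This call was lost when any 1 of the 6 libraries was left out, with adjusted p between 0.0660 (without LT-HSC 2) and 0.128 (without LT-HSC 1), and when all 20207 genes were tested (adjusted p = 0.0838). The log2 fold change stayed between -1.07 and -0.78 in all 15 settings. Trim25 maps to chromosome 11, positions 88860690 to 88881607, plus strand.

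**Figure D2:**
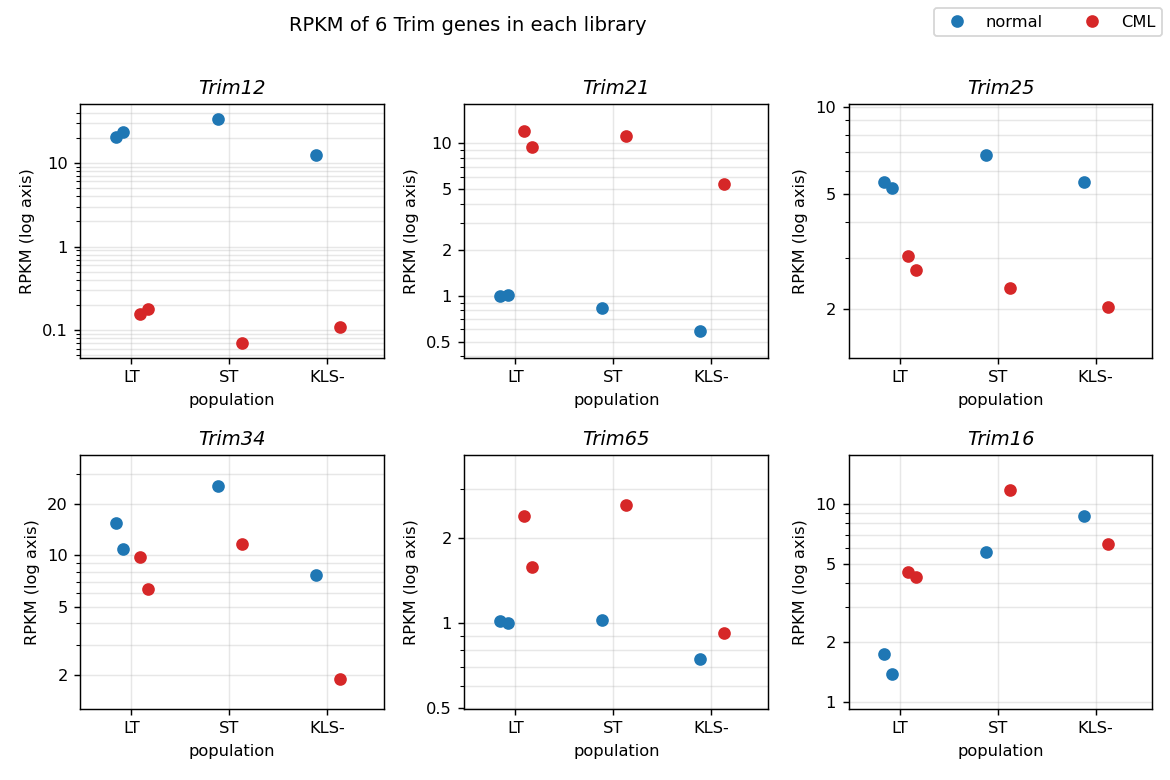
RPKM on log axes for 6 Trim genes in the LT, ST and KLS- populations, with 1 point per library (blue, normal; red, CML). Trim12 and Trim25 are lower and Trim21 is higher in every CML library than in every normal library, the Trim34 and Trim65 points are closer together, and Trim16 is highest among CML libraries in ST-CML at 11.7 RPKM.

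The other genes of the chromosome 7 cluster differed much less than Trim12. Trim34, a PRY-SPRY relative of Trim5 whose annotated span encloses Trim12, was 15.4, 10.9 and 25.6 RPKM in normal stem cells, 9.77, 6.32 and 11.6 RPKM in CML stem cells, 7.71 RPKM in normal KLS- and 1.89 RPKM in CML-KLS- cells. The stem ranges overlapped, since ST-CML was above LT-HSC 2, but within each population the CML value was the lower one. The log2 fold change in stem cells was -0.80 (SE 0.32, adjusted p = 0.366 from limma), and it passed in 1 of 15 settings, with all 8 libraries in the fit (adjusted p = 0.0232).

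Trim6, which makes free ubiquitin chains that act in interferon signalling, was 2.67, 2.83 and 4.06 RPKM in normal stem cells, 3.45, 2.05 and 2.69 RPKM in CML stem cells, and 0.839 and 0.821 RPKM in KLS- cells. Its stem ranges overlapped (log2 fold change -0.17, SE 0.20, adjusted p = 0.799 from limma). Trim30 had a log2 fold change of -0.05 (SE 0.21, adjusted p = 0.949 from limma). Of the 4 cluster members, Trim12 was the 1 that passed the test in CML stem cells. All 4 had a log2 fold change below 0, in a comparison where 42.9% of all genes were above 0. For Trim6 and Trim30 its size was smaller than the SE. For Trim30 the sign changed under quantile normalization (0.000123) and upper-quartile scaling (0.029). The 100-base windows shared with other genes were 27.6% for Trim34 (with Trim34b), 2.43% for Trim30 (with Trim30d) and 0% for Trim6, so part of the Trim34 value is uncertain.

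The letters around the starts of these genes are shown because Trim12 and Trim21, the 2 members that differed most, share a feature there with Trim34 and Trim30, which did not pass the test in stem cells. The motif GAAANNGAAA, the element read by interferon regulatory factors, was searched on both strands in RefSeq promoters from 250 bases before to 50 bases after each start. It occurs in 3.44% of 32851 promoters and 3.99% of 27025 genes. A promoter was found for 26 of the 35 members, and 5 of these hold the motif (Trim12, Trim21, Trim26, Trim30 and Trim34). Trim25 is not among those with the motif. A match describes the reference letters only and is not a measured site. Each sequence runs from 90 bases before to 30 bases after the start, with the motif in capitals. The whole promoter searched, from which it was cut, has 1 exact match in mm9.
Trim12 (chr7:111463980-111464099, minus strand): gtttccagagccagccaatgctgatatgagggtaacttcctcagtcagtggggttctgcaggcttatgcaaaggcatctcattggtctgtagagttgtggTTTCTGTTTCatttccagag
Trim21 (chr7:109713967-109714086, minus strand): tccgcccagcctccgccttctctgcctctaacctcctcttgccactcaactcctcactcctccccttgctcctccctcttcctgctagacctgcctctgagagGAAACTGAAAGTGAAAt
Trim34 (chr7:111392881-111393000, plus strand): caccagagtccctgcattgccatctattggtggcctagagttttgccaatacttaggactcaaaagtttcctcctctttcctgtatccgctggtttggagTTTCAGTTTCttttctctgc
Trim30 (chr7:111613678-111613797, minus strand): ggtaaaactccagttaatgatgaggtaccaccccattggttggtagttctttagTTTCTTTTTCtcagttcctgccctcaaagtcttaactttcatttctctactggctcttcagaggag
In Trim12 and Trim34 the motif begins at base 11 after the start and in Trim21 at base 14, where 2 copies overlap. In this Trim30 start it begins 36 bases before the start. The motif TTCNNNGAA, bound by STAT proteins, is in 8.30% of promoters and in those of 2 of the 26 members, Trim45 and Trim46.

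Among the members tied to innate signalling, Trim65, a ligase for the RNA sensor MDA5 (Ifih1), was 1.019, 1.002 and 1.029 RPKM in normal stem cells and 2.41, 1.59 and 2.62 RPKM in CML stem cells. KLS- cells had 0.745 RPKM in normal and 0.920 RPKM in CML mice. The stem groups did not overlap, and the log2 fold change of 0.65 (SE 0.16) did not pass (adjusted p = 0.0982 from limma, 0.0518 to 0.316 over 15 settings). Exons of Trim65 overlap those of Trim47 by 225 bases on the same strand.

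Trim68, a PRY-SPRY member encoded near Trim21 (chromosome 7, minus strand, 109826094 to 109835840), was 3.88, 4.70 and 5.84 RPKM in normal stem cells and 6.31, 6.67 and 7.32 RPKM in CML stem cells. KLS- cells had 2.48 and 3.38 RPKM. Each CML stem value exceeded each normal one, with a log2 fold change of 0.43 (SE 0.17, adjusted p = 0.353 from limma). This change is much smaller than that of Trim21.

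Trim16, a member without a RING domain that acts in stress responses and autophagy, was 1.74, 1.39 and 5.71 RPKM in normal stem cells, 4.55, 4.30 and 11.7 RPKM in CML stem cells, and 8.66 and 6.28 RPKM in normal and CML KLS- cells. CML values were higher within LT and within ST cells and lower in KLS- cells, and the pooled stem ranges overlapped because ST-HSC exceeded both LT-CML libraries. The pooled log2 fold change was 1.03 (SE 0.47, adjusted p = 0.428 from limma), and it passed when the fit also held a term for LT or ST (adjusted p = 0.00618). Fbxw10, which shares 36.8% of the Trim16 exon bases on the same strand, was 1.60, 2.14 and 1.76 RPKM in normal and 3.71, 2.88 and 4.73 RPKM in CML stem cells (log2 fold change 0.74, SE 0.18, adjusted p = 0.107 from limma). How reads in the shared exons were divided between the 2 genes is not given in the sources used here.

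Trim58 and Trim10 act in erythroid maturation. Trim58 was 1.24, 0.573 and 0.777 RPKM in normal stem cells, 1.81, 1.65 and 1.08 RPKM in CML stem cells, and 0.450 and 0.563 RPKM in KLS- cells (stem log2 fold change 0.44, SE 0.18, adjusted p = 0.382 from limma). Trim10 was 0.112, 0.896 and 0.0237 RPKM in normal stem cells, 0, 0.0735 and 0.144 RPKM in CML stem cells, and 0.814 and 2.30 RPKM in KLS- cells. LT-HSC 2 alone set the stem difference of Trim10, whose log2 fold change was -0.27 with it and 0.0052 without it.

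Of the co-repressors of the TIF1 group, Trim24, Trim28 and Trim33, 0 passed in limma and 0 had an unadjusted p under 0.05. Trim24 was 2.40, 3.42 and 1.99 RPKM in normal stem cells, 1.75, 2.06 and 1.33 RPKM in CML stem cells, and 1.64 and 0.876 RPKM in KLS- cells. Its log2 fold change in stem cells was -0.40 (SE 0.19, adjusted p = 0.455 from limma), that of Trim33 -0.19 and that of Trim28 -0.17. The 8 members that no rule named, Trim11, Trim23, Trim27, Trim33, Trim37, Trim39, Trim41 and Trim59, were between 0.906 and 7.74 RPKM in every library and had log2 fold changes between -0.24 and 0.22 in this comparison.

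**Figure D3:**
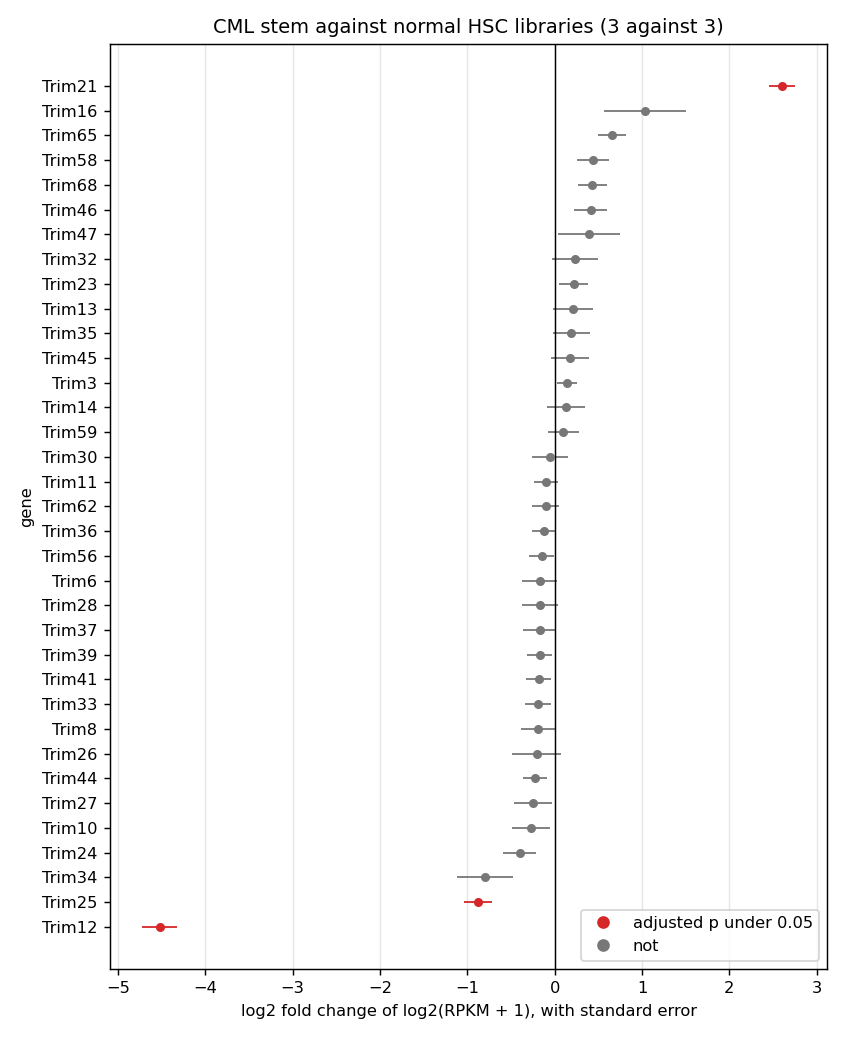
Log2 fold change of log2(RPKM + 1) with its standard error for 35 Trim genes in CML stem against normal HSC libraries (3 against 3, positive is higher in CML). Red marks the 3 genes with an adjusted p under 0.05, with Trim12 at -4.52, Trim25 at -0.88 and Trim21 at 2.60, and the others lie between -0.80 and 1.03.

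Within LT cells alone (2 libraries against 2) 3 members passed, and 1.73% of all genes did (0.939% higher, 0.788% lower). Trim12 fell by 4.28 on the log2 scale (SE 0.20, adjusted p = 0.000138 from limma). Trim21 rose by 2.54 (SE 0.20, adjusted p = 0.00236), and Trim16 rose by 1.09 (SE 0.20, adjusted p = 0.0462). Trim25 had a log2 fold change of -0.71 (SE 0.19, adjusted p = 0.159). The median was -0.04 over the members and -0.01 over all genes, and 8 of the 35 members passed an unadjusted p under 0.05, against 11.6% of all genes.

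These LT calls rest on few libraries. Trim12 stayed called in 10 of 11 settings, Trim21 in 8 and Trim16 in 4. Trim21 lost its call without LT-CML 1 (adjusted p = 0.0801 from limma) and without LT-CML 2 (adjusted p = 0.0727). Trim16 lost it without any 1 of the 4 LT libraries, with adjusted p between 0.115 (without LT-HSC 1) and 0.351 (without LT-CML 1).

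KLS- progenitors had 1 library in each condition, so their differences have no replicate check. A difference of at least 1 in log2(RPKM + 1) was found in 4 of 35 members (11.4%), against 3.24% of all genes (1.85% higher, 1.39% lower). Trim21 was higher by 2.01 in CML-KLS-, and Trim12, Trim34 and Trim25 had differences of -3.60, -1.59 and -1.10. Trim12, Trim21 and Trim25 are the 3 members called in stem cells. The median difference was -0.11 over the members and -0.01 over all genes.

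The difference between CML and normal cells had the same sign in LT, ST and KLS- cells for 21 of the members. It was positive in all 3 populations for 8 (22.9%, against 19.0% of all genes) and negative in all 3 for 13 (37.1%, against 28.1%). Trim12 differed by -4.28 in LT, -5.00 in ST and -3.60 in KLS- cells. Trim21 differed by 2.54, 2.73 and 2.01, Trim25 by -0.71, -1.21 and -1.10, and Trim34 by -0.66, -1.08 and -1.59. Trim16 changed sign, with 1.09 in LT, 0.92 in ST and -0.41 in KLS- cells.

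**Figure D4:**
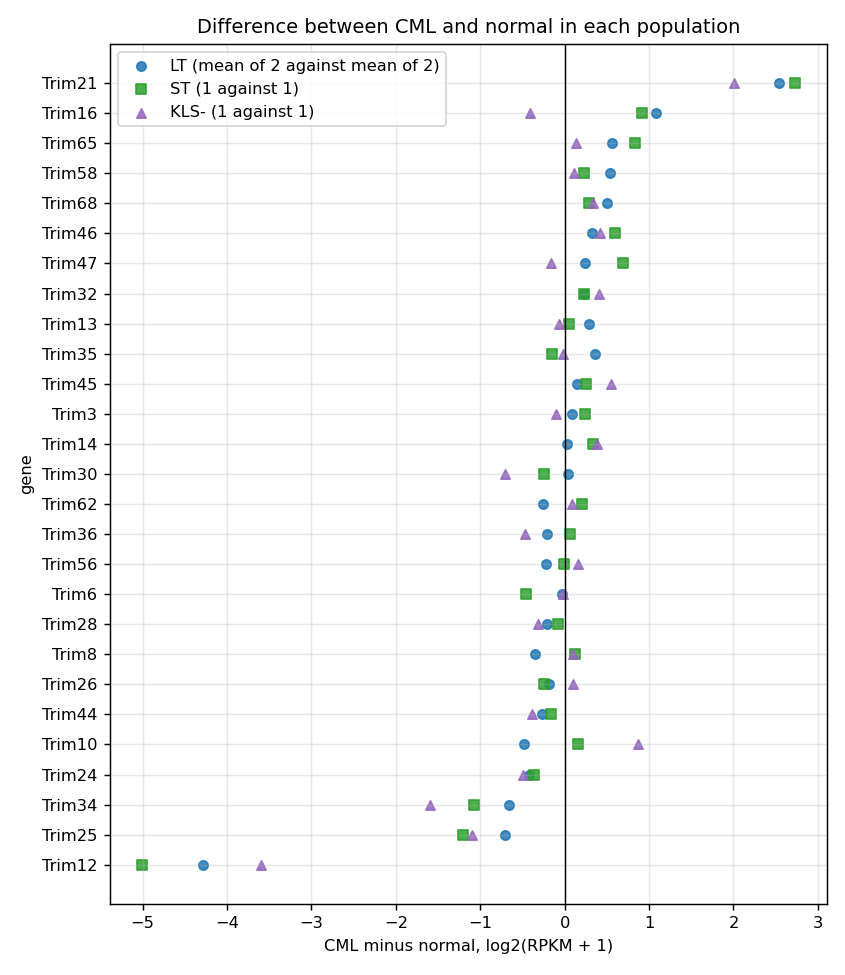
CML minus normal difference in log2(RPKM + 1) for the 27 named Trim genes in LT cells (circles, mean of 2 libraries against mean of 2), ST cells (squares, 1 against 1) and KLS- cells (triangles, 1 against 1). The 3 symbols of Trim12 lie between -5.00 and -3.60 and those of Trim21 between 2.01 and 2.73, whereas the triangle of Trim16 lies on the other side of 0 from its circle and square.

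The largest number of members differed between stem cells and progenitors. The 6 stem libraries were compared with the 2 KLS- libraries, with disease as a covariate, to ask which members are tied to the stem compartment. Of 35 members 21 passed, 19 higher and 2 lower in stem cells, while 48.7% of all genes passed (26.5% higher, 22.2% lower). At an unadjusted p under 0.05, 24 of the 35 members passed, against 56.2% of all genes. The median log2 fold change was 0.42 over the members and 0.08 over all genes. In 16 members all stem libraries exceeded both KLS- libraries, and in 1 all were below, against 27.7% and 21.9% of all genes (49.6% in either direction).

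The number of members called depended on the scaling. In the main fit 6123 of 12561 genes passed. With upper-quartile scaling, which moved the median of all genes to 0.21, 23 members were higher and 2 lower. In that setting 6373 genes passed, and the share of higher among all calls went from 54.4% to 68.1%. With quantile normalization the median was -0.01, and 10 members were higher and 3 lower, 12 of them also among the 21. In that setting 5329 of 12561 genes passed, and the share of higher calls was 48.8%.

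Trim47, a PRY-SPRY ligase, had the largest rise in stem cells. It was 2.99, 6.47 and 1.82 RPKM in normal stem cells and 6.19, 4.78 and 3.56 RPKM in CML stem cells, against 0.312 and 0.178 RPKM in normal and CML KLS- cells. The log2 fold change was 1.89 (SE 0.25, adjusted p = 0.000512 from limma). Trim34 and Trim6 of the chromosome 7 cluster followed with log2 fold changes of 1.51 (SE 0.24) and 1.13 (SE 0.18), and Trim30 had one of 0.80 (SE 0.17, adjusted p = 0.00534). Trim12 was higher in normal stem than in normal KLS- cells and near 0 in both CML compartments, and the fit over both gave a log2 fold change of 0.53 (SE 0.23, adjusted p = 0.0873).

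Of the 11 members tied to innate signalling, 7 were higher in stem cells and 0 lower, against 26.5% and 22.2% of all genes. With quantile normalization 3 were higher and 0 lower, where 5329 of 12561 genes passed and 48.8% of these calls were higher. Trim8, which modulates cytokine and NF-kB signalling, was 6.48, 8.78 and 5.02 RPKM in normal stem cells, 5.78, 5.61 and 5.56 RPKM in CML stem cells, and 2.35 and 2.58 RPKM in KLS- cells (log2 fold change 0.99, SE 0.17). Trim13 had a log2 fold change of 0.94 and Trim21 one of 0.58 (SE 0.17, adjusted p = 0.0210 from limma). Trim26, a ligase that acts on IRF3, was 3.88, 3.39 and 6.69 RPKM in normal stem cells, 2.76, 3.41 and 5.50 RPKM in CML stem cells, and 2.37 and 2.61 RPKM in KLS- cells (log2 fold change 0.67).

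Less abundant in this group were Trim14, an adaptor of the MAVS pathway, and Trim56, which acts on STING. Trim14 was 2.35, 0.906 and 1.49 RPKM in normal stem cells, 1.48, 1.69 and 2.14 RPKM in CML stem cells, and 0.310 and 0.706 RPKM in KLS- cells (log2 fold change 0.84). In Trim14, 30.5% of exon bases overlap Nans on the opposite strand, and whether the counting used strand is not given in the sources used here. Trim56 was 1.55, 1.80 and 1.36 RPKM in normal stem cells, 1.55, 1.05 and 1.36 RPKM in CML stem cells, and 0.713 and 0.920 RPKM in KLS- cells (log2 fold change 0.41). Trim65 had a log2 fold change of 0.49.

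Other members higher in stem cells were Trim44, Trim68, Trim58 and Trim24, with log2 fold changes of 0.97, 0.82, 0.47 and 0.42. Trim62, a ligase linked to epithelial polarity, was 1.003, 1.45 and 0.715 RPKM in normal stem cells, 0.831, 0.876 and 0.973 RPKM in CML stem cells, and 0.139 and 0.211 RPKM in KLS- cells (log2 fold change 0.72, SE 0.14). All 6 stem libraries of Trim62 exceeded both KLS- libraries.

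The microtubule-binding members Trim36 and Trim46 and Trim3, which has NHL repeats, were low and also higher in stem cells. Trim36 was 1.90, 1.81 and 1.37 RPKM in normal stem cells, 1.30, 1.65 and 1.47 RPKM in CML stem cells, and 1.09 and 0.514 RPKM in KLS- cells (log2 fold change 0.51). Trim3 was 0.645, 0.793 and 0.540 RPKM in normal stem cells, 0.719, 0.929 and 0.817 RPKM in CML stem cells, and 0.317 and 0.228 RPKM in KLS- cells (log2 fold change 0.44). Trim46 was 0.424, 0.569 and 0.763 RPKM in normal stem cells, 1.12, 0.646 and 1.66 RPKM in CML stem cells, and 0.272 and 0.701 RPKM in KLS- cells. For Trim46 the stem and KLS- libraries overlapped, and its log2 fold change of 0.37 (SE 0.13, adjusted p = 0.0451 from limma) passed in 5 of 14 settings.

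Trim45 and Trim10 were the 2 members lower in stem cells. Trim45, a repressor of MAP kinase signalling, was 0.336, 0.562 and 0.690 RPKM in normal stem cells and 0.216, 1.09 and 1.01 RPKM in CML stem cells, against 4.16 RPKM in normal KLS- and 6.54 RPKM in CML-KLS- cells. All stem libraries lay below both KLS- libraries, and the log2 fold change was -1.90 (SE 0.20, adjusted p = 0.000183 from limma). Trim10 had a log2 fold change of -1.09 (SE 0.28, adjusted p = 0.0123), and its LT-HSC 2 value lay above normal KLS-.

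Summed RPKM of cell type markers was compared between the same compartments. For 6 neutrophil markers it was 8008 and 13736 in normal and CML KLS- cells against 108 to 3925 in stem libraries. Mpo alone was 7891 and 13120 RPKM in these KLS- libraries. Ltf, Camp and Ngp went the other way, with stem log2 fold changes of 1.59, 1.02 and 1.45 (adjusted p = 0.134, 0.557 and 0.371 from limma). The sum of 5 monocyte and macrophage markers was 228 and 112 against 11.5 to 25.7. That of 6 erythroid markers was 59.7 and 96.7 against 7.00 to 79.3, so these ranges overlapped, with Hba-a1 at 0 in every library. The part of these markers in the differences of the Trim genes was not tested. The members Trim6, Trim8, Trim13, Trim34, Trim44, Trim45, Trim47 and Trim68 (8 of the 21) kept their call in all 15 settings. The calls of Trim24, Trim56 and Trim58 were kept in 8, 6 and 5 of the 15. With either KLS- library left out, the KLS- group held 1 library, so counts of calls in those fits are not read as a result about the members.

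**Figure D5:**
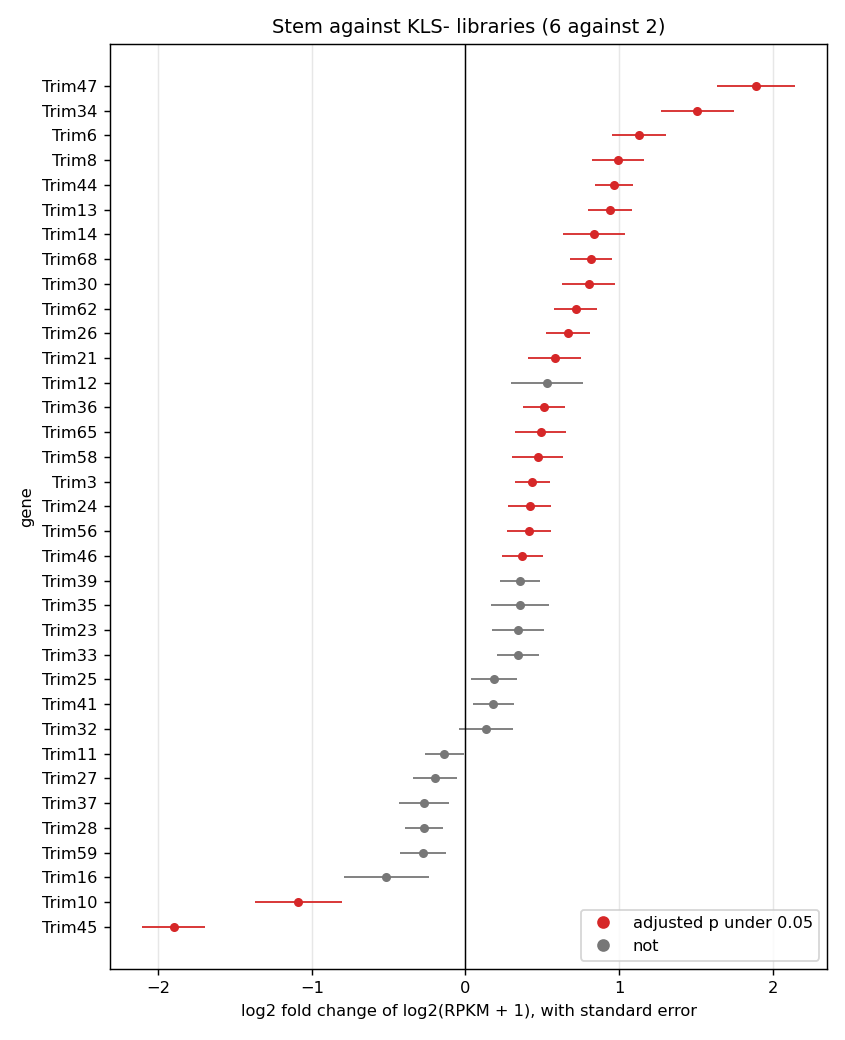
Log2 fold change of log2(RPKM + 1) with its standard error for 35 Trim genes in the 6 stem against the 2 KLS- libraries, with disease as a covariate (positive is higher in stem cells). Red marks the 21 genes with an adjusted p under 0.05, which run from Trim47 at 1.89 to Trim46 at 0.37 on the higher side, with Trim10 at -1.09 and Trim45 at -1.90 on the lower side.

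Between ST and LT stem cells, with disease as a covariate, 2 members passed, both higher in ST cells, while 4.87% of all genes passed (2.13% higher, 2.74% lower). Trim26 rose by 0.70 on the log2 scale (SE 0.15, adjusted p = 0.0320 from limma). Trim16 rose by 1.31 (SE 0.29, adjusted p = 0.0370). In both genes the ST library was above both LT libraries of its own condition. With 1 ST library in each condition, leaving out LT-HSC 2 kept 1 call (Trim26), and leaving out any other stem library kept none. The median was 0.00 over the members and -0.01 over all genes, and 11 of the 35 members passed an unadjusted p under 0.05, against 19.6% of all genes.

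Partners of the TRIM ligases were examined from lists of pathway genes. Of 13 ubiquitin-activating and ubiquitin-conjugating enzymes listed, 11 were in the tables, and 0 passed between CML stem cells and normal HSCs in limma (1, Ube2l6, at an unadjusted p under 0.05). Their median log2 fold change was -0.18, against -0.04 over all genes. In stem against KLS- cells 3 were higher and 6 lower, where 26.5% and 22.2% of all genes were, with Ube2l6, an enzyme that also carries the ubiquitin-like protein ISG15, higher by 1.54.

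Of 14 genes of the cytosolic sensing pathway, 11 were in the tables and 1 passed in CML stem cells, where 2.34% of all genes did. This was Ifih1 (MDA5), the sensor that Trim65 acts on, which was 16.3, 11.1 and 16.7 RPKM in normal stem cells and 6.42, 5.09 and 5.16 RPKM in CML stem cells (log2 fold change -1.24, SE 0.19, adjusted p = 0.0191 from limma). All CML values were below all normal values. Ddx58 (RIG-I), the substrate of Trim25, was 14.0, 8.96 and 22.5 RPKM in normal and 11.7, 8.51 and 14.5 RPKM in CML stem cells, and these ranges overlapped (log2 fold change -0.30, adjusted p = 0.775). The median log2 fold change of the list was 0.05, against -0.04 over all genes.

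Of 10 interferon receptor, kinase and transcription factor genes, all were in the tables and 0 passed in CML stem cells in limma (2, Irf1 and Ifngr2, at an unadjusted p under 0.05), with 8 of the 10 log2 fold changes below 0 and a median of -0.04. Irf1 had a log2 fold change of -0.65 (adjusted p = 0.136) and Irf7 -1.13 (adjusted p = 0.465). In stem against KLS- cells 4 were higher (Irf1, Irf7, Jak1 and Irf9) and 2 lower (Ifngr1 and Ifngr2), so that 6 of the 10 passed, near the 48.7% of all genes. Of the 4 TRIM family genes with other symbols that were tested, Pml, Mid1, Mid2 and Mefv, 0 passed in CML stem cells in limma and 1, Mid1, had an unadjusted p under 0.05. Mid1, a microtubule-binding ligase, was 0.177, 0.165 and 0.174 RPKM in normal and 0.697, 1.74 and 0.9996 RPKM in CML stem cells (log2 fold change 0.84, SE 0.17, adjusted p = 0.0559).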

How the data were processed

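RNA of 8 sorted populations was sequenced. The authors made oligo-dT primed libraries from low amounts of RNA, sequenced paired ends of 100 bases, mapped them to mm9 (NCBI Build 37) and deposited 1 RPKM value per gene and library. The gene annotation, the counting rule and the handling of reads with several matches are not given in the sources used here. Groups came from the labels.

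RPKM are not counts, so log2(RPKM + 1) was fitted with limma (version 3.58.1, R version 4.3.3, moderated with a mean-dependent prior, threshold 0.05) over genes with a total above 1 RPKM. CML stem and normal HSC libraries were fitted alone (3 against 3). LT cells were compared in a fit of 6 population means over 8 libraries (2 residual degrees of freedom). Stem against KLS- and ST against LT were contrasts in the same fit over all 8 libraries, with stage and disease as terms. The fits were also run on simulated data with independent noise for each library and no differences beyond those added. That run does not check the part of age, sex or strain in the calls made here.

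Depth was estimated from the steps between low RPKM values, which lay on whole multiples in 90.4% of 3451 low genes (tolerance 0.03). Its absolute scale was the most frequent estimate, shared by 1185 of 2878 low genes with an exon length. Depth was used for precision and for the Trim12 reads and their fold ratio, and did not enter the fits. Gene models were those of GENCODE M1 on the same build, and promoter letters those of RefSeq. All 58 members matched 1 locus.

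Members were named with all values if they passed in any of the 4 comparisons, if the stem groups did not overlap with a log2 fold change of at least 0.5 in size, if they were among the 8 most abundant, or if the KLS- libraries differed by at least 1 on the log2 scale, which gave 27. The members and the lists were chosen with earlier results of these data known. 1 gene of the interferon receptor and factor list is not reported here and was left out of that list's counts. Other pseudocounts, minimum levels, normalizations and covariates were tried, and each library was left out in turn. Leaving out both libraries with Y-linked transcripts was chosen after seeing the data. Python 3.11.15 was used for the rest.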

Additional observations from a re-analysis of the deposited data

How the results depend on the processing

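Trim12 and Trim21 passed between CML stem cells and normal HSCs in 15 of 15 settings, and Trim25 in 7. Over the named members and the alternatives, 349 of these values kept direction and side of the threshold, 8 lost a call, 2 gained one and 15 changed sign. In stem against KLS- cells the counts were 307, 59, 6 and 2. The cause of each shift was not tested. Genes called between CML stem cells and normal HSCs numbered 294, and 173 with no minimum on RPKM, 543 with LT or ST as a covariate, 776 with all 8 libraries and 38 without both libraries with Y-linked transcripts (an alternative chosen after seeing the data). Leaving out 1 library at a time gave 115 to 217 genes. In LT cells, with no minimum on RPKM, 0 genes and 0 members passed in limma (1881 genes and 6 members at an unadjusted p under 0.05), and leaving out 1 library gave 6 to 74 genes and 1 to 2 members. In stem against KLS- cells quantile normalization gave 13 members, and leaving out 1 library gave 3178 to 6338 genes and 13 to 21 members. In ST against LT cells, with no minimum, 127 genes and 0 members passed in limma (9 members at an unadjusted p under 0.05). Without both libraries with Y-linked transcripts 0 members passed (9 at an unadjusted p under 0.05), and leaving out 1 library gave 110 to 718 genes and 0 to 1 member.

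The log2 fold change of Trim30 in CML stem cells was 0.000123 with quantile normalization, 0.029 with upper-quartile scaling and -0.16 to 0.15 with 1 library left out. That of Trim10 was 0.012 with all 8 libraries, 0.0034 without both libraries with Y-linked transcripts and -0.44 to 0.0052 with 1 library left out. Without both libraries with Y-linked transcripts, Trim62 had 0.036, Trim56 0.0013, Trim35 -0.094 and Trim14 -0.047. With 1 library left out, the ranges were -0.23 to 0.030 for Trim62, -0.016 to 0.34 for Trim35, -0.065 to 0.34 for Trim14 and -0.43 to 0.040 for Trim26. In stem against KLS- cells, Trim25 had -0.011 with quantile normalization and Trim16 (-0.52 with all libraries) -1.24 to 0.20 with 1 library left out. Trim16 passed in 1 of 15 settings, without CML-KLS- (-1.24, adjusted p = 0.00527 from limma), and changed sign without normal KLS-. No paired analysis was possible because the titles number the LT-CML libraries only, and the normal LT libraries are told apart by age. Depth limits the 23 members below 0.5 RPKM, of which 3 (Trim2, Trim7 and Trim9) entered the fits and none is described by its differences.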

Other observations

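Of the 11 genes of the sensing pathway in the tables, 6 passed between stem cells and progenitors in limma, near the 48.7% of all genes. The 4 that were higher in stem cells were Ddx58 (log2 fold change 2.07, SE 0.20), Ifih1 (1.08, SE 0.19), Traf6 (0.49, SE 0.14) and Tbk1 (0.46, SE 0.17). Ddx58 was 8.51 to 22.5 RPKM in the 6 stem libraries and 3.02 and 2.11 RPKM in normal and CML KLS- cells. Tmem173 (STING) and Ikbke were lower in stem cells, with log2 fold changes of -0.49 (SE 0.14) and -0.49 (SE 0.16). The median log2 fold change of the list of 11 was 0.07, against 0.08 over all genes. Among TRIM family genes with other symbols, Pml, which organises nuclear bodies, and Mid2 were higher in stem cells (log2 fold changes 0.70 and 0.34), and Mefv (pyrin), known from myeloid cells, was lower (-2.23, SE 0.21), with 0.0516 to 0.977 RPKM in stem libraries and 4.04 and 6.32 RPKM in normal and CML KLS- cells.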
